A study of Arabidopsis thaliana with 11 samples.

Results

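The genes described here are the expansins and the xyloglucan endotransglucosylase/hydrolases (XTHs) of Arabidopsis thaliana, 2 families of secreted proteins that act on the primary cell wall. They were taken by name from the expression table of a flower development series, as every gene with an alias of the form EXPA, EXPB, EXLA, EXLB, EXP or XTH followed by a number. The rule found 40 genes among the 20971 genes of the table, of which 18 are expansins (13 EXPA, 2 EXPB and 3 EXLA) and 22 are XTHs. No EXLB gene was among them, and the gene numbers of both families have gaps. Sums, shares and ranks given below thus cover the genes found and not the whole families. RNA levels came from stranded sequencing of total RNA, and the inflorescences sampled were of the ecotype Landsberg. The plants were ap1-1 cal-1 double mutants, which keep producing inflorescence-like meristems in place of flowers, and carried the floral regulator AP1 fused to a glucocorticoid receptor (pAP1:AP1-GR), so that dexamethasone (DEX) starts flower formation in many meristems at once. All groups share this genotype. The groups were tissue taken before treatment (day 0, n = 3) and on day 2 (n = 2), day 4 (n = 3) and day 8 (n = 3) of daily DEX treatment, each library being a pool of 5 inflorescences. The sample labels give the DEX concentration as 2 mM, the series design as 1 uM and the methods of the study as 2 uM. There were no untreated plants after day 0, so that the length of treatment, the age of the plants and the stage of the flowers cannot be told apart.

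Plant cells grow by letting a load-bearing wall of cellulose and xyloglucan yield to turgor. Expansins loosen this wall without cutting its polymers and work best in an acidic wall, which plasma membrane proton pumps provide. XTHs cut xyloglucan chains and rejoin them to other chains, and a few members cut them with water instead. Both families are large in plants, and their genes are known for being active in particular organs and phases of growth, from meristems to expanding petals and stamen filaments.

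XTH enzymes carry a short conserved stretch with a glutamate, an aspartate and a glutamate at every other position, which holds the catalytic residue. Its coding sequence was found in 21 of the 22 XTH genes, in 21 different versions of 27 bases, and was not found by the same search in XTH11. The stretch is shown for 3 XTH genes that rose strongly by day 8 and for 2 that fell, because the genes with opposite changes described below share it. The lines run 5′ to 3′ on the coding strand, capitals mark the codons of these 3 residues, and the sequences are those of the RefSeq TAIR10.1 assembly of the Columbia reference, not of the Landsberg plants sequenced.
XTH18 (chr4:14826569-14826595, minus strand): gatGAGattGATttcGAGttcttagga
XTH24 (chr4:14820042-14820068, minus strand): gatGAGattGATtttGAGttcttgggt
XTH22 (chr5:23307839-23307865, minus strand): gacGAGataGATttcGAGtttttaggg
XTH9 (chr4:1416538-1416564, plus strand): aacGAAttcGATtttGAGttcttaggg
XTH32 (chr2:15474073-15474099, minus strand): gatGAGgtaGACataGAAtttttgggg
The marked codons stand at the same places in all 5 lines. The first codon, in lower case, is also one for aspartate (gat or gac) in 20 of the 21 genes, and not in XTH9.

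Values are FPKM, a read level scaled to transcript length and library size, which allows levels to be compared between genes. The 11 deposited columns share one common distribution, so that their totals (734615 to 734624 FPKM) say nothing about depth, which is unknown. For tests, values were taken as log2(FPKM + 1), which understates the change of low genes, and a gene entered the tests if 2 or more libraries reached 1 FPKM. This left 19278 genes, among them 15 expansins and 20 XTHs. A change is the difference of mean log2(FPKM + 1) ± SE from limma, and a gene was called at a Benjamini-Hochberg adjusted p under 0.05 if FPKM + 1 also differed 2-fold or more. The spread between replicates was wider on day 8 (pooled SD 0.34 on the log2 scale) than on days 0, 2 and 4 (0.16, 0.23 and 0.17). The fit took the same spread of a gene for all days. SEs and p-values thus tend to be too small for comparisons with day 8 and too large for the earlier ones. Lists of known floral and meristem genes were read as a check of the tissue. All 6 floral identity genes listed rose between day 0 and day 8, and the summed level of 5 meristem genes was 91.8 to 177 FPKM on day 8, against 361 to 398 FPKM on day 0. None of 5 pollen genes was among the rows analysed here, and the 1 tapetum gene found (AMS) had at most 0.37 FPKM. In whole inflorescences, fewer cells of a type and less RNA per cell cannot be told apart.

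Summed over the genes found, the 2 families had similar levels on days 0 and 8 and the expansins had the higher level on days 2 and 4. The 18 expansins together had 875 ± 27.2 FPKM before treatment (SD, n = 3), 1151 ± 137 FPKM at day 2 (n = 2), 1049.5 ± 53.6 FPKM at day 4 (n = 3) and 686 ± 13.3 FPKM at day 8 (n = 3). The 22 XTHs together had 897 ± 24.8 FPKM before treatment, 685 ± 67.0 FPKM at day 2, 679 ± 76.9 FPKM at day 4 and 722 ± 144 FPKM at day 8. The expansin sum was thus highest on days 2 and 4, and the XTH sum on day 0. EXPA15 was the leading expansin in all 8 libraries of days 0, 2 and 4, with 24.8 to 33.3% of the family sum, and EXPA10 in all 3 libraries of day 8, with 34.8 to 41.4%. XTH9 led the XTHs in all 8 libraries of days 0, 2 and 4, with 42.7 to 50.4% of the sum. On day 8 XTH22 led in replicates 1 and 2 (19.6 and 19.0%) and XTH9 in replicate 3 (26.8%), and the day 8 means of XTH9 and XTH22 were 123 ± 29.2 and 122 ± 59.0 FPKM (SD, n = 3 each).

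**Figure D1:**
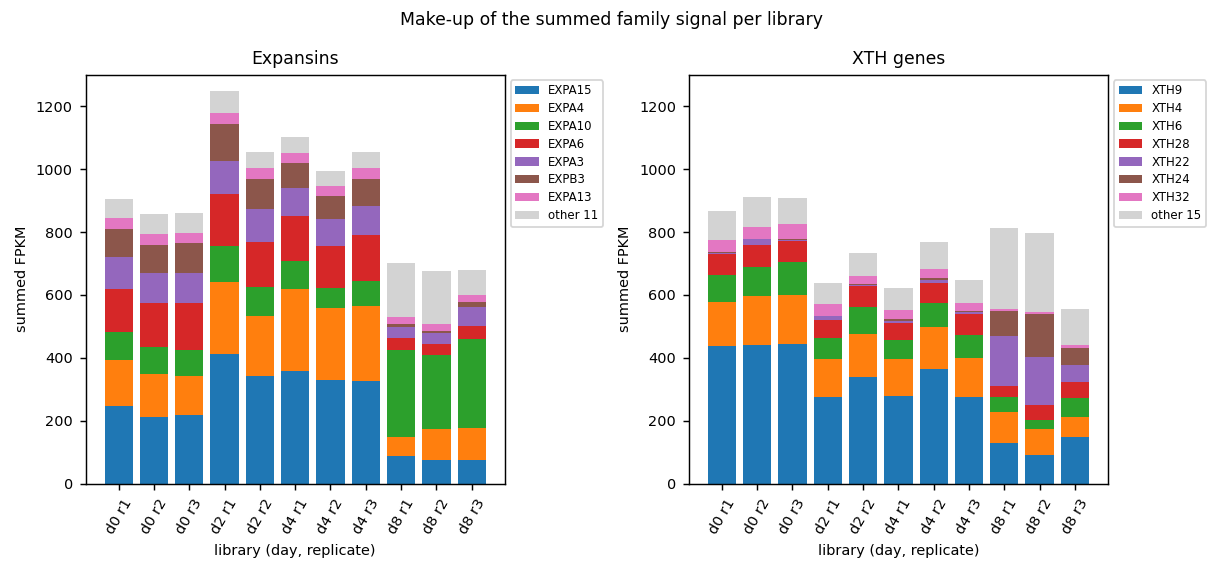
Stacked bars of summed FPKM per library (d, day; r, replicate) for the 18 expansins (left) and the 22 XTH genes (right), with the 7 genes of highest mean in colour and the others in grey. EXPA15 and XTH9 take the largest parts on days 0 to 4, and EXPA10 and, in replicates 1 and 2, XTH22 on day 8.

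**Figure D2:**
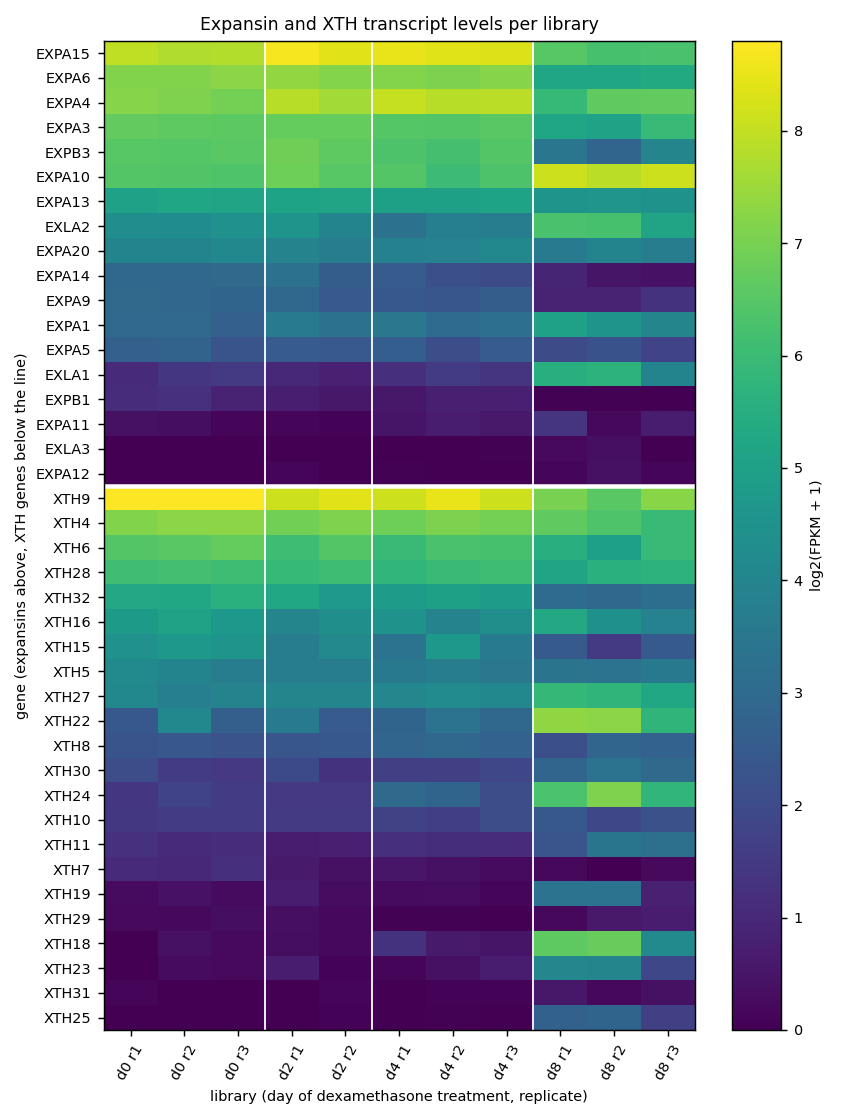
Log2(FPKM + 1) of all 40 genes (rows, ordered within each family by their day 0 mean) in the 11 libraries (columns, separated by day). The libraries of days 0, 2 and 4 look alike. On day 8 EXLA1 and several XTH genes that were low on day 0, among them XTH18, XTH22, XTH23, XTH24 and XTH25, are brighter.

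The first question was how early these genes changed after induction. Up to day 4 almost none of them were called. Few of all genes were called in these comparisons either, so the low counts are not particular to these families. Between day 2 and day 0, 0 of 15 expansins and 0 of 20 XTHs were called by limma, with 3 and 3 at an unadjusted p under 0.05. Among all genes 0.244% were called higher and 0.0934% lower in that comparison. Between day 4 and day 2, 0 expansins and 0 XTHs were called (2 and 2 at an unadjusted p under 0.05), against 0.301% of all genes higher and 0.0674% lower. Between day 4 and day 0, 0 expansins and 1 XTH were called (6 and 6 at an unadjusted p under 0.05), against 1.59% of all genes higher and 0.617% lower. Tests without limma's moderation also called 0 members in each comparison listed here at 0. Comparisons with day 0 share its libraries and are not independent of each other.

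The single early call was XTH24 (AT4G30270, also known as MERI5, first described from meristem tissue). XTH24 had 7.27, 6.09 and 3.36 FPKM on day 4, against 1.64, 2.41 and 1.97 FPKM on day 0. Day 2 gave 1.75 and 1.73 FPKM, so that the 3 libraries of day 4 lay above all 5 earlier ones. The change between day 4 and day 0 was 1.09 ± 0.30 with a limma adjusted p of 0.0494. This call ended when any of 8 single libraries was left out (each of the 3 of day 0, both of day 2, replicates 1 and 2 of day 4 and replicate 1 of day 8), and the change then ranged from 0.89 to 1.38 over all alternatives, with an adjusted p of up to 0.181.

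EXPA15 (AT2G03090) and EXPA4 (AT2G39700), the 2 expansins with the highest means over all libraries, were also higher at the early days, by less than 2-fold. EXPA15 had 249, 213 and 218 FPKM before treatment, 413 and 342 FPKM at day 2, 359, 331 and 326 FPKM at day 4 and 90.0, 74.9 and 76.8 FPKM at day 8. Its level was lowest on day 8, and none of the days overlapped with day 0. Between day 2 and day 0 the change was 0.73 ± 0.12 (limma adjusted p = 0.0261), and between day 4 and day 0 it was 0.58 ± 0.10 (adjusted p = 0.00633). EXPA4 had 146, 136 and 125 FPKM before treatment, 229 and 192 FPKM at day 2, 261, 228 and 238 FPKM at day 4 and 58.7, 100.3 and 102 FPKM at day 8. Its change between day 4 and day 0 was 0.83 ± 0.18 (adjusted p = 0.0169). Among the XTHs, XTH7 and XTH32 were lower on day 4 than on day 0, also by less than 2-fold. Their changes were -0.68 ± 0.16 and -0.51 ± 0.13 (limma adjusted p = 0.0247 and 0.0340). XTH7 was near the filter limit, with a mean of 1.11 FPKM on day 0. It entered the tests only through its day 0 values, so its p-value is not independent support for a fall.

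Most of the called changes in both families came between day 4 and day 8. Over the 4 days, 12 of 15 expansins and 13 of 20 XTHs were called by limma's F test, against 32.8% of all genes. Between day 8 and day 4, 4 expansins rose and 7 fell, and 9 XTHs rose and 3 fell, while 12.5% of all genes rose and 11% fell. Between day 8 and day 0, 4 expansins rose and 7 fell, and 9 XTHs rose and 4 fell, while 14.2% of all genes rose and 15.2% fell. The median change between day 8 and day 0 was -0.68 over the tested expansins and 0.50 over the tested XTHs, with -0.19 over all genes. Without replicate 2 of day 8 the XTH median was 0.16, in a fit that tested 19 XTHs and left out XTH19. Both comparisons use the same day 8 libraries, so their counts are not independent. The expansins thus had more falls and the XTHs more rises, a difference between the families that was not tested. Some of these counts follow from the filter on low values. XTH18, XTH19, XTH23 and XTH25 were kept because of their day 8 values, and EXPB1 and XTH7 because of their day 0 values. Without these 6 genes, 4 of 14 expansins rose and 6 fell, and 5 of 15 XTHs rose and 4 fell. The middle change of these 15 XTHs was -0.31, that of XTH16. The positive XTH median thus depends on genes that were kept because of their day 8 values. The shares of all genes given above were not recounted in this way. With the columns rescaled by median ratios the median of all genes was -0.01 in both comparisons, and the share of rises among all called genes went up by more than 10 points, to 59.8% against 48.3% for day 8 and day 0, and to 65.3% against 53.2% for day 8 and day 4. The families then had 4 rises and 6 falls (expansins) and 9 rises and 3 falls (XTHs) in both comparisons.

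**Figure D3:**
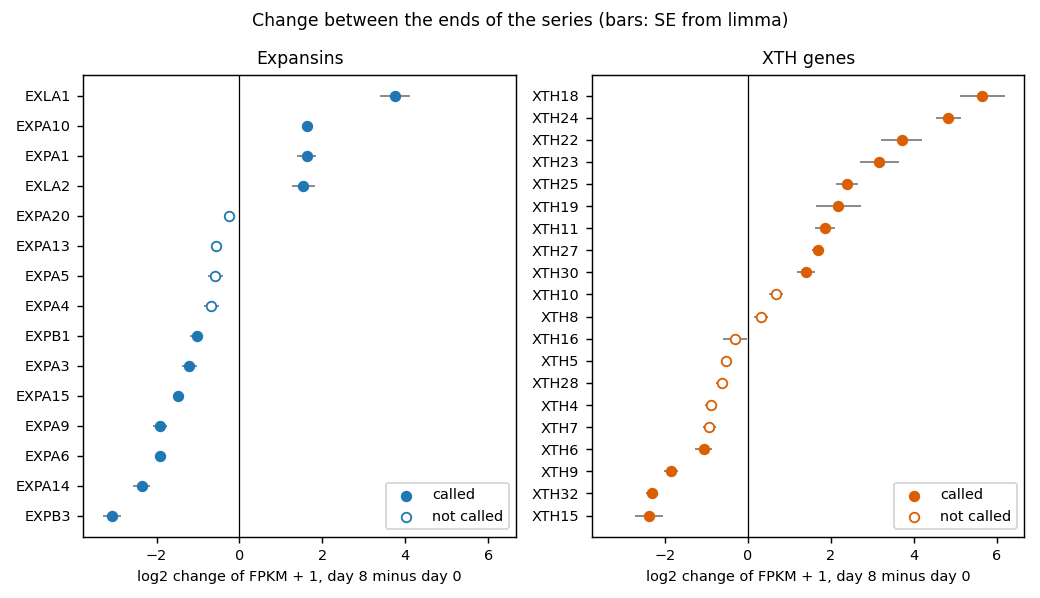
Change in log2(FPKM + 1), day 8 minus day 0, of the 15 tested expansins (left) and 20 tested XTH genes (right), with the SE from limma as bars. Filled points passed the adjusted p and the 2-fold minimum, and they run from -3.07 for EXPB3 to 3.75 for EXLA1 among the expansins and from -2.40 for XTH15 to 5.65 for XTH18 among the XTHs.

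The alpha-expansins (EXPA), the group whose wall-loosening activity is best established, changed in both directions. EXPA10 (AT1G26770), known from leaves and pedicels, had 278, 236 and 282 FPKM on day 8, against 86.8, 84.4 and 81.9 FPKM on day 0. Its earlier libraries ranged from 64.0 to 115 FPKM and did not overlap with day 8. The change was 1.64 ± 0.12 between day 8 and day 0 (limma adjusted p = 6.76e-07) and 1.77 ± 0.12 between day 8 and day 4. EXPA1 (AT1G69530), known from guard cells, had 31.9, 22.6 and 15 FPKM on day 8, against 7.09, 7.07 and 5.55 FPKM on day 0. It rose by 1.62 ± 0.23 (adjusted p = 7.1e-05), and no earlier library passed 11.2 FPKM.

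Of the other EXPA genes tested, 5 fell between day 8 and day 0, among them the leading gene of the earlier days. EXPA15 fell by 1.48 ± 0.10 (limma adjusted p = 3.83e-07), to 80.6 ± 8.20 FPKM on day 8, against 227 ± 19.7 FPKM on day 0 (SD, n = 3 each). EXPA6 (AT2G28950) had 35.9, 35.2 and 39.7 FPKM on day 8, against 138, 140.1 and 152 FPKM on day 0. Its 8 libraries of days 0, 2 and 4 lay between 133 and 164 FPKM, and the fall of 1.93 ± 0.08 had the lowest adjusted p of the 35 tested members in this comparison (1.66e-08). EXPA14 (AT5G56320) had 0.870, 0.421 and 0.362 FPKM on day 8, against 6.59, 6.88 and 7.18 FPKM on day 0. Its level on day 4 (4.89, 3.45 and 3.08 FPKM) lay between the 2, and the change between day 8 and day 0 was -2.36 ± 0.21 (adjusted p = 1.88e-06). EXPA9 (AT5G02260) had 0.808, 0.822 and 1.46 FPKM on day 8, against 7.24, 6.52 and 6.09 FPKM on day 0, a change of -1.92 ± 0.17. EXPA3 (AT2G37640) averaged 43.2 ± 16.0 FPKM on day 8 and 97.7 ± 2.95 FPKM on day 0 (SD, n = 3 each), a change of -1.22 ± 0.18 (adjusted p = 0.000108). EXPA4 fell between day 8 and day 4 by 1.51 ± 0.18 (adjusted p = 2.49e-05), while its change between day 8 and day 0, -0.68 ± 0.18 (adjusted p = 0.00542), stayed below 2-fold.

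The beta-expansins (EXPB), a group best known from grass pollen, were represented by EXPB3 and EXPB1. EXPB3 (AT4G28250) had 10.1, 6.31 and 15 FPKM on day 8, against 90.4, 88.2 and 93.2 FPKM on day 0. Days 2 and 4 stayed between 72.0 and 118 FPKM, and the day 8 libraries lay far below all of them. The change between day 8 and day 0 was -3.07 ± 0.22 (limma adjusted p = 4.15e-07). EXPB1 (AT2G20750) was low throughout, with 0.0264, 0.0382 and 0.0109 FPKM on day 8, against 1.17, 1.37 and 0.786 FPKM on day 0, and its change of -1.03 ± 0.16 just passed 2-fold. This fall was close to fixed by the filter, since EXPB1 entered the tests only through its day 0 values.

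The expansin-like genes (EXLA) have the domains of expansins, and no loosening activity is established for them. EXLA1 (AT3G45970) had 44.8, 51.0 and 14.6 FPKM on day 8, against 1.05, 1.61 and 1.82 FPKM on day 0. All 8 earlier libraries were between 0.73 and 1.93 FPKM, and the change between day 8 and day 0 was 3.75 ± 0.37 (limma adjusted p = 4.24e-06). EXLA2 (AT4G38400) had 76.0, 75.1 and 34.7 FPKM on day 8, against 19.0, 18.3 and 20.8 FPKM on day 0. Day 4 was its lowest day (8.84, 12.8 and 12.4 FPKM), and EXLA2 rose by 2.28 ± 0.27 between day 8 and day 4 and by 1.54 ± 0.27 between day 8 and day 0. Together the 3 EXLA genes had 98.9 ± 43.1 FPKM on day 8 and 20.9 ± 1.52 FPKM on day 0 (SD, n = 3 each).

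**Figure D4:**
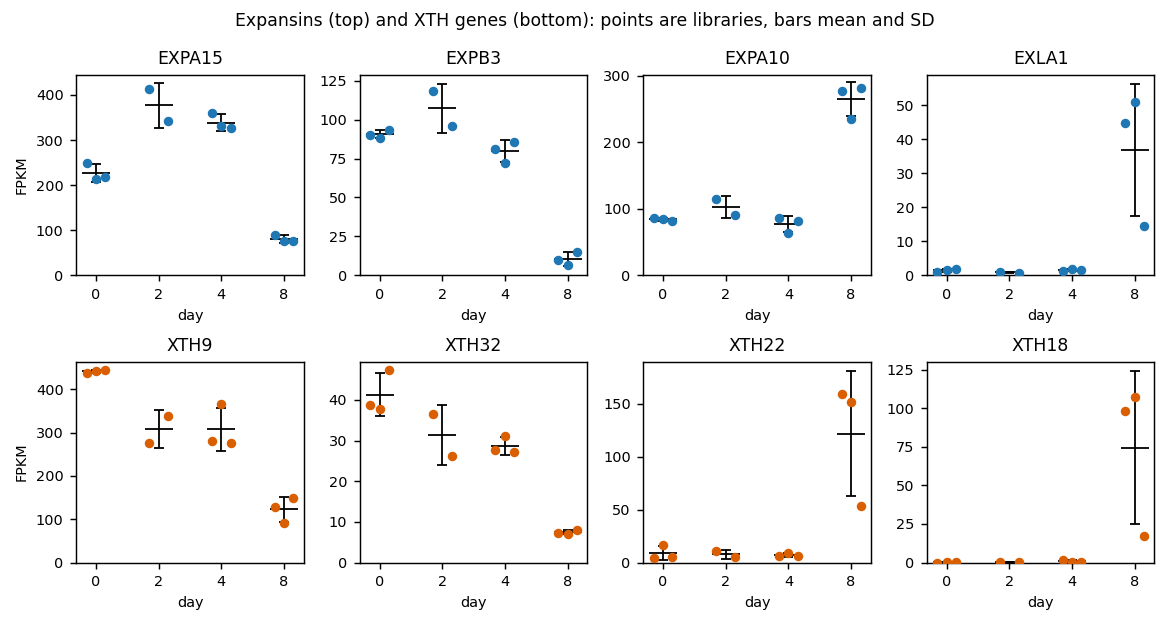
FPKM of 4 expansins (top) and 4 XTH genes (bottom) against the day of treatment, with 1 point per library and bars for the mean and SD (n = 3, 2, 3 and 3). EXPA15, EXPB3, XTH9 and XTH32 are lowest on day 8, and EXPA10, EXLA1, XTH22 and XTH18 are highest there, with replicate 3 of day 8 below the other 2 for EXLA1, XTH22 and XTH18.

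Among the XTHs, the largest rises were those of genes that were low on day 0. For XTH18, and for XTH23, XTH25 and XTH19 described below, a rise was close to fixed by the filter. They entered the tests only through their day 8 values, so their p-values are not independent support for a rise. XTH18 (AT4G30280) had 98.1, 108 and 17.3 FPKM on day 8, against 0.00909, 0.306 and 0.175 FPKM on day 0, where the first value is the lowest that its column gives to any gene. Its highest earlier library was replicate 1 of day 4 with 1.42 FPKM. The change was 5.65 ± 0.54 between day 8 and day 0 (limma adjusted p = 3.85e-06), the largest of the 35 tested members on this scale. XTH24 had 79.0, 136 and 54.8 FPKM on day 8, and rose by 4.83 ± 0.30 relative to day 0 (adjusted p = 1.89e-07) and by 3.74 ± 0.30 relative to day 4. XTH22 (AT5G57560), also called TCH4 and known for its response to touch, had 159, 152 and 53.6 FPKM on day 8, against 4.36, 16.2 and 5.40 FPKM on day 0. Its days 2 and 4 spanned 4.78 to 11 FPKM, and the rise of 3.72 ± 0.49 (adjusted p = 4.49e-05) made it the second gene of the family on day 8.

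The other rising XTHs stayed at lower levels. XTH23 (AT4G25810) had 15.7, 15.1 and 2.74 FPKM on day 8 and at most 0.607 FPKM in any earlier library, and its change between day 8 and day 0 was 3.16 ± 0.47 (limma adjusted p = 0.000108). XTH25 (AT5G57550) had 5.59, 6.17 and 2.18 FPKM on day 8, while its 3 day 0 values were the lowest that those columns hold, so that its change of 2.40 ± 0.26 (adjusted p = 1.01e-05) depends on the value of 1 added before the logarithm. XTH19 (AT4G30290) had 9.31, 9.09 and 0.761 FPKM on day 8, against 0.204, 0.357 and 0.198 FPKM on day 0 (2.18 ± 0.54, adjusted p = 0.00336). It reached 1 FPKM in only 2 libraries, and without either of them it was not tested. XTH27, XTH11 and XTH30 also rose, with day 8 means of 49.9 ± 10.3, 7.38 ± 2.98 and 7.56 ± 1.53 FPKM, against 14.5 ± 1.53, 1.2 ± 0.169 and 2.28 ± 0.817 FPKM on day 0 (SD, n = 3 each). Their changes were 1.70 ± 0.14, 1.86 ± 0.24 and 1.40 ± 0.22.

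XTH9 (AT4G03210), known from inflorescence apices and the leading XTH before induction, fell. It had 438, 443 and 445 FPKM before treatment, 276 and 339 FPKM at day 2, 280.3, 365 and 276 FPKM at day 4 and 129, 91.6 and 149 FPKM at day 8. Every later library was below the 3 of day 0, and the day 8 libraries were below all others. The change between day 8 and day 0 was -1.86 ± 0.17 (limma adjusted p = 2.48e-06). XTH32 (AT2G36870), of the XTH subgroup known for cutting xyloglucan with water, had 7.37, 6.95 and 7.97 FPKM on day 8, against 38.8, 37.7 and 47.3 FPKM on day 0. Its fall of 2.32 ± 0.13 (adjusted p = 8.37e-08) was mostly reached after day 4, when the libraries still had 27.6, 31.1 and 27.2 FPKM, with a change of -1.81 ± 0.13 between day 8 and day 4. XTH15 (AT4G14130) had 4.68, 1.82 and 4.62 FPKM on day 8, against 20.9, 24.6 and 22.4 FPKM on day 0, a change of -2.40 ± 0.34 (adjusted p = 7.1e-05).

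XTH6 (AT5G65730) had 46.4, 30.5 and 61.8 FPKM on day 8, against 85.3, 93.0 and 106 FPKM on day 0. Its change of -1.07 ± 0.21 (limma adjusted p = 0.000852) fell short of 2-fold without replicate 3 of day 0 or without replicate 2 of day 8, and over all alternatives it ranged from -1.30 to -0.80. XTH4 (AT2G06850), the second XTH on day 0, had 100.2, 81.5 and 61.8 FPKM on day 8, against 139, 154 and 154 FPKM on day 0. Its change of -0.89 ± 0.14 (adjusted p = 0.000196) was under 2-fold and was not called.

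By rank of the mean level, XTH22 stood 2nd of the 22 XTHs on day 8 and 10th on day 0, XTH24 3rd on day 8 and 13th on day 0, and XTH18 5th on day 8 and 19th on day 0. Among the expansins EXPA10 stood 1st on day 8 and 6th on day 0, and EXPB3 11th on day 8 and 5th on day 0.

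The members that were not called or not tested complete the account. EXPA13, EXPA20 and EXPA5 had differences of -0.56 ± 0.07, -0.26 ± 0.12 and -0.58 ± 0.18 between day 8 and day 0. EXPA20 ranged from 11.1 to 16.3 FPKM over all 11 libraries. XTH5, XTH7, XTH8, XTH10, XTH16 and XTH28 had differences between -0.94 and 0.69 and were not called. XTH28, with 44.2 ± 8.76 FPKM on day 8 and 68.1 ± 2.45 FPKM on day 0 (SD, n = 3 each), was the most abundant of these. Of the 5 genes left out of the tests, EXPA11 reached 1.57 FPKM in 1 library of day 8, and EXLA3, EXPA12, XTH29 and XTH31 stayed at or below 0.608 FPKM in all libraries.

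Replicate 3 of day 8 stood apart from the other 2 for many of the rising genes. Of the 13 members called higher on day 8 than on day 0, 10 (76.9%) had their lowest day 8 value in replicate 3, against 58.9% of all genes called higher. On the log2(FPKM + 1) scale its difference from the mean of replicates 1 and 2 was -2.53 for XTH19, -2.51 for XTH18, -2.14 for XTH23, -1.65 for EXLA1, -1.52 for XTH22, -1.11 for XTH25 and -1.10 for EXLA2. Of the 11 members called lower, 7 (63.6%) had their highest day 8 value in replicate 3, against 56.2% of all genes called lower, with EXPA3 (0.84 above) and EXPB3 (0.83 above) the farthest. The same library had 177 FPKM over the 5 meristem genes, against 121 and 91.8 FPKM in replicates 1 and 2, and 19.6 FPKM over 5 xylem genes, against 32.8 and 35.5 FPKM. Its sum over the floral identity genes was the highest of the day, with 749 FPKM against 713 and 571 FPKM. Its sum over the epidermis genes lay between the others, with 2138 FPKM against 2723 and 1524 FPKM. The part of tissue make-up in the differences of the members was not tested. Without replicate 3 the counts between day 8 and day 0 were the same, with 4 rises and 7 falls among the expansins and 9 rises and 4 falls among the XTHs. The changes between day 8 and day 0 were then 6.49 for XTH18, 4.22 for XTH22, 3.88 for XTH23, 3.03 for XTH19, 4.30 for EXLA1, 2.77 for XTH25 and 1.91 for EXLA2, against 5.65, 3.72, 3.16, 2.18, 3.75, 2.40 and 1.54 with all 3 libraries.

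Several of the rising genes are neighbours in the genome. XTH24, XTH18 and XTH19 are adjacent protein-coding genes on the minus strand of chromosome 4 (14819192 to 14830224 in TAIR10.1), and XTH25 and XTH22 are adjacent on the minus strand of chromosome 5 (23304782 to 23308680). These 5 genes were the only XTHs of the table that stand beside another member, and all 5 rose by day 8. For XTH18, XTH19 and XTH25 a rise was close to fixed by the filter, since they entered the tests only through their day 8 values, which leaves XTH22 and XTH24. EXLA3 and EXLA1 are adjacent on chromosome 3, and EXLA3 was near 0 in all libraries while EXLA1 rose.

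Close copies can share reads, which limits how well their levels are told apart. Between the coding sequences of 231 pairs of XTHs the identity was 55.4 to 89.2% with a median of 61.5%, and between those of 153 pairs of expansins it was 53.0 to 86.6% with a median of 58.3%. The highest pair was XTH18 and XTH19 (89.2%), whose longest shared run was 68 bases, followed by EXLA1 and EXLA3 (86.6%, 57 bases) and EXLA1 and EXLA2 (84.7%, 23 bases). In the 3 libraries of day 8 XTH19 had 9.31, 9.09 and 0.761 FPKM where XTH18 had 98.1, 108 and 17.3 FPKM, so the value of XTH19 in particular is uncertain, and the same holds for EXLA3 beside EXLA1. XTH22 and XTH23, and XTH15 and XTH16, were 81.4% identical.

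Genes that make or trim xyloglucan, acidify the wall or belong to the brassinosteroid pathway were read beside these families, with 29.4% of all genes called between day 8 and day 0 in either direction. Of 11 genes for xyloglucan synthesis, 1 rose and 2 fell between day 8 and day 0. CSLC4, a glucan synthase of the xyloglucan backbone, had 20.3, 24.5 and 8.84 FPKM on day 8, against 1.76, 2.06 and 2.32 FPKM on day 0. It rose by 2.52 ± 0.29 (limma adjusted p = 1.42e-05), and its day 8 replicate 3 was again the lowest of the day. CSLC8, of the same family, fell by 1.29 ± 0.11, and XLT2, a galactosyltransferase, fell by 1.02 ± 0.26. The xylosyltransferases XXT1, XXT2 and XXT5 were not called. None of 3 genes for xyloglucan trimming (XYL1, BGAL10 and AXY8) was called. Of 9 plasma membrane proton pump genes, AHA2 rose by 1.03 ± 0.11 and AHA10 fell by 1.01 ± 0.14. AHA1, the pump gene of the highest mean level with 100.03 to 138 FPKM, was not called. Of 9 brassinosteroid genes, DWF4 and ROT3, which encode biosynthetic enzymes, rose by 1.98 ± 0.08 and 1.62 ± 0.16, and none fell. DWF4 had 45.3, 45.2 and 40.1 FPKM on day 8, against 9.49, 10.4 and 10.9 FPKM on day 0, and both genes were already called on day 2 (1.08 ± 0.09 and 1.14 ± 0.18). The median change was 0.09 over the synthesis genes, -0.63 over the trimming genes, -0.12 over the pump genes and 0.01 over the brassinosteroid genes, with -0.19 over all genes. Of 4 epidermis genes GL2, a regulator of epidermal cell fate, fell by 3.34 ± 0.21, and of 5 xylem genes none was called. Of the 5 meristem genes STM and KNAT1, both homeobox genes, fell by 1.71 ± 0.14 and 2.22 ± 0.25. The 3 genes of the SAUR19 group found, which are known to raise proton pump activity, were below 1 FPKM in all libraries.

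The promoters of the members were searched for short motifs in 250 bases before and 50 bases after the annotated start, on both strands, and all 40 were found in the RefSeq annotation. The element CGTGTG, known from brassinosteroid-responsive promoters, was in 6 of 40 members (15%) and in 6.52% of 27443 promoters of protein-coding genes. The windows below show it in the 4 of these members that rose by day 8, 5′ to 3′ on the strand of the gene with 15 bases on each side, in capitals as CGTGTG or as its reverse complement.
EXLA2 (chr4:17979819-17979854, minus strand): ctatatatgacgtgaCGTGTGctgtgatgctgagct
EXPA1 (chr1:26141485-26141520, plus strand): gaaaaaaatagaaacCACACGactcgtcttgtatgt
XTH23 (chr4:13128285-13128320, plus strand): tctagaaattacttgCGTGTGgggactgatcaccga
XTH25 (chr5:23306567-23306602, minus strand): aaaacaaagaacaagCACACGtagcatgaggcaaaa
The other 2 members with the element were EXPA6, which fell, and XTH8, which was not called. For XTH23 and XTH25 a rise was close to fixed by the filter, since they entered the tests only through their day 8 values. The G-box CACGTG was in 0 of 40 members and in 7.68% of all promoters, the W-box core TTGACC in 7 of 40 (17.5%) and 14.2%, the auxin response element TGTCTC in 4 of 40 (10.0%) and 14.2%, and the CArG box, bound by MADS-domain proteins such as AP1, in 1 of 40 (2.5%) and 3.05%. A match is a run of letters in the reference sequence, and binding was not tested.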

How the data were processed

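The authors mapped reads to TAIR10 with STAR, estimated expression with RSEM version 1.2.22 and deposited FPKM values per gene and library. The deposited p-values and FDR values across the days, and the authors' mean FPKM per day, were not used. Sorted FPKM columns differed by a median of 0.0702%, and read counts were not used here, so precision rests on the spread between the 11 libraries alone. Depth per sample is unknown. Nothing says that replicates came from separate plantings, so p-values measure the spread between pools.

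Values were fitted as log2(FPKM + 1) by limma (version 3.58.1, under R version 4.3.3) with a variance trend, 4 days as groups and 7 residual degrees of freedom, and p-values were adjusted over 19278 genes by the Benjamini-Hochberg method. The model was tested on simulated data. Groups are the days that the labels give. The members, the gene lists and the tests were chosen with earlier results of these data known. Named members were the up to 5 largest called rises and falls per comparison and family and the 3 genes of highest mean in each family, and of the other lists up to 3 called genes in each direction. The other members and list genes named fell outside that rule and were chosen after their values were seen. Alternatives were another pseudocount (0.1), no filter or a minimum of 5 FPKM, unmoderated tests, library weights, median-ratio rescaling, the replicate number as a block, no fold minimum, a fit without day 8 and each library left out. Sequences and coordinates came from RefSeq TAIR10.1, in which all 40 members were found.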

Additional observations from a re-analysis of the deposited data

How the results depend on the processing

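No count of called members or named change reversed under any alternative, and the totals of called members between day 8 and day 0, between day 8 and day 4 and among the 4 days stayed within 1.5 times. The XTH falls did not: without the 2-fold minimum 10 XTHs rose and 8 fell between day 8 and day 0, against 9 and 4 with it, and 9 rose and 6 fell between day 8 and day 4, against 9 and 3. The median XTH change between day 8 and day 0 ranged from 0.16 (without replicate 2 of day 8, 19 XTHs tested) to 0.85 (with a minimum of 5 FPKM, 18 XTHs tested), against 0.50. Both sets still held XTH18, XTH23 and XTH25, which were kept because of their day 8 values. Over the 15 XTHs that no single day kept in the tests, the middle change was -0.31, that of XTH16. Leaving out single libraries gave 10 to 11 expansins and 11 to 13 XTHs between day 8 and day 0, 10 to 11 and 11 to 12 between day 8 and day 4, and 11 to 12 and 11 to 13 among the 4 days. The early comparisons moved. Without the 2-fold minimum, 1 expansin was called between day 2 and day 0, against 0 with it, and 2 expansins and 3 XTHs between day 4 and day 0, against 0 and 1. The 1 XTH called between day 4 and day 0 (XTH24) became 0 without the filter on low values, with unmoderated tests, with median-ratio rescaling, and in 8 of 11 fits without a library (range 0 to 1). Between day 4 and day 2, library weights or a fit without day 8 called 1 XTH, against 0. The causes were not tested. Of 36 named changes, 34 kept their call throughout, the others being XTH24 between day 4 and day 0 (lost under 11 of 20 alternatives) and XTH6 between day 8 and day 0 (lost under 3, median-ratio rescaling among them).

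Same-numbered replicates did not deviate together (15 pairs, correlations -0.251 to 0.132, 2 above 0.1), so the numbers were not read as a pairing. With the replicate number as a block, 11 expansins and 13 XTHs were called between day 8 and day 0 and 1 XTH between day 4 and day 0, as without it, and 25 against 65 genes in all between day 2 and day 0. Depth is unknown, so the counting error of low values could not be given.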
